A study of Mus musculus with 20 samples.

Results

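The receptors that bind the constant part of IgG were followed through 6 genes: the 4 mouse Fc gamma receptors Fcgr1, Fcgr2b, Fcgr3 and Fcgr4, the shared signalling chain Fcer1g, and Fcgrt, which encodes the heavy chain of the neonatal Fc receptor FcRn. They were chosen by symbol and are 6 of the 55406 genes in the count table. All 6 passed the filter on low counts, which left 18144 genes. RNA had been sequenced from 20 ID8 Trp53-/-Brca1-/- tumours. ID8 is a mouse ovarian surface epithelial cancer line, and a luciferase-expressing derivative of it had been injected into the peritoneal cavity of female C57/BL6 mice. The 6 groups were untreated control (n = 3), the PARP inhibitor olaparib (PARPi, n = 3), immune checkpoint blockade (ICB, n = 3), PARPi with ICB (n = 3), PARPi with anti-VEGFA (n = 4), and PARPi with ICB and anti-VEGFA, called here the full combination (n = 4). Olaparib was given by mouth at 40 mg/kg per day, and ICB was 100 µg of anti-CTLA-4 with 200 µg of anti-PD-L1. Anti-VEGFA was given at 20 µg, and each antibody was injected into the peritoneal cavity on a twice-weekly schedule. So 3 of the 4 drugs are antibodies, and 4 of the 6 groups received at least 1 of them. Every group carries the Trp53-/-Brca1-/- cancer cells. The age of the mice, the time of sampling, the number of cell clones and the isotypes of the antibodies are not given in the sources used here, and none of the groups analysed here received a control antibody.

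Fc gamma receptors are found mainly on macrophages, monocytes, neutrophils, dendritic cells, natural killer cells and B cells. Fcgr1, Fcgr3 and Fcgr4 are activating receptors that need the Fcer1g chain, whose tyrosine motif recruits the kinase Syk when IgG complexes cross-link the receptor. Fcgr2b carries an inhibitory motif of its own that recruits the phosphatase encoded by Inpp5d, and so opposes the activating receptors. FcRn works differently: with beta-2-microglobulin it binds IgG and albumin in acidic endosomes of endothelial cells and macrophages and returns them to the surface, which lengthens their life in blood.

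In GRCm38, 4 of the 6 genes lie within 275.7 kb of chromosome 1. Fcgr2b (ENSMUSG00000026656) lies at chr1:170958617-170976547 on the minus strand, Fcgr4 (ENSMUSG00000059089) at chr1:171018920-171029761 on the plus strand, Fcgr3 (ENSMUSG00000059498) at chr1:171051174-171064935 on the minus strand and Fcer1g (ENSMUSG00000058715) at chr1:171229572-171234365 on the minus strand. Fcgr1 (ENSMUSG00000015947) lies at chr3:96282909-96293969 and Fcgrt (ENSMUSG00000003420) at chr7:45092990-45103851, both on the minus strand. The activating receptors Fcgr1, Fcgr3 and Fcgr4 pair with the same chain, so the 250 bases before the transcription start of each are set side by side, 5′ to 3′, from RefSeq promoter windows on GRCm38.p6. Capitals mark 3 motifs searched on both strands, where overlapping matches were allowed: GAGGAA, an Ets core of the kind bound by PU.1 (Spi1), TTCNNNGAA, the gamma-interferon-activated site, and the interferon-stimulated response element, taken as a pair of GAAA blocks with any 2 bases between them. The windows are chr3:96293970-96294219 (minus) for Fcgr1, chr1:171059404-171059653 (minus) for Fcgr3 and chr1:171018676-171018925 (plus) for Fcgr4.
Fcgr1: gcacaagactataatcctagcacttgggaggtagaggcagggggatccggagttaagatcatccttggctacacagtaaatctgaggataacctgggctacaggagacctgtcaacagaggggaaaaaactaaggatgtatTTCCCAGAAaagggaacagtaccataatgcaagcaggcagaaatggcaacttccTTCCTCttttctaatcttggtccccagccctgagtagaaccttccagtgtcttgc
Fcgr3: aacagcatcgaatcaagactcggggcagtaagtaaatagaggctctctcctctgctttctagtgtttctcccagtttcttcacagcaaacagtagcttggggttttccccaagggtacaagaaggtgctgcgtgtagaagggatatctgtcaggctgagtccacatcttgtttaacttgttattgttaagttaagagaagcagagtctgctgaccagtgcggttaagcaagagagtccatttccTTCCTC
Fcgr4: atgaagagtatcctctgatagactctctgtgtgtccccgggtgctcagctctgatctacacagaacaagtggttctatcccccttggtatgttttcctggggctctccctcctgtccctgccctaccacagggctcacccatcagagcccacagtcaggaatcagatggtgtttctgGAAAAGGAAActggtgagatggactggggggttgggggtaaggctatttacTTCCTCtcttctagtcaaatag
The Fcgr1 window held TTCCCAGAA, a match to TTCNNNGAA, starting 109 bases before the start, and the Ets core on the other strand (TTCCTC) starting 55 bases before it. The Fcgr3 window held the same Ets core starting 6 bases before the start. The Fcgr4 window held it starting 22 bases before, and GAAAAGGAAA, a match to the interferon-stimulated response element, starting 73 bases before. None of the 3 motifs was in the windows of Fcgr2b, Fcer1g or Fcgrt. Of the 250 bases of the Fcgr2b window 187 lie in annotated exons of that gene, so the search there covered little sequence outside its transcripts. For Fcgr3, 2 windows were listed and the first was searched. Of 32851 RefSeq promoter windows of this length, 23.3% held GAGGAA, 7.02% TTCNNNGAA and 2.98% the interferon-stimulated response element. The RefSeq start of Fcgr3 lies inside the gene's Ensembl span, so other transcripts of it start elsewhere. A match is a run of letters, and binding was not measured.

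Libraries held 26.86 to 34.66 M counts in genes. Markers of a macrophage compartment were present in every tumour, with summed levels of 11 markers from 977 to 1917 CPM, which are counts scaled to a common library size. Markers of acinar cells of the pancreas were high in 4 libraries: ICB replicate 3, PARPi with anti-VEGFA replicates 1 and 4, and full combination replicate 2. Their mean log2 CPM was 3.41 to 8.07 there and at most 0.78 elsewhere. A set of 3 RNAs that vary with library preparation (Rn7sk, Lars2 and Mir6236) also moved with treatment: their mean log2 CPM was 4.64 ± 0.18 in controls, 3.68 ± 0.66 with PARPi, 2.94 ± 0.18 with ICB, 3.25 ± 0.29 with PARPi and ICB, 2.75 ± 0.04 with PARPi and anti-VEGFA and 3.79 ± 0.69 in the full combination (SD). Values of this set are set beside the results they bear on. In bulk tissue, fewer cells of a type and less RNA per cell cannot be told apart. Nothing in the labels says how the replicates were separated beyond 1 mouse per title, so p-values measure the spread between these samples.

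In untreated tumours the signalling chain was the most abundant member and Fcgr1 the least. Per kb of merged exon length, controls held 67.9 ± 1.16 CPM of Fcer1g, 37.4 ± 2.75 of Fcgr3, 20.9 ± 0.38 of Fcgrt, 14.3 ± 1.70 of Fcgr4, 13.4 ± 0.85 of Fcgr2b and 7.90 ± 0.69 of Fcgr1 (SD, n = 3). Fcgr4 and Fcgr2b did not differ beyond their spread, and their order depended on the length used. Over the longest coding transcript, Fcgr2b stood at 21.9 ± 1.38 CPM per kb, above Fcgr4 at 14.3 ± 1.70 and just below Fcgrt at 24.9 ± 0.45. Fcer1g and Fcgr3 stayed first and second, at 86.9 ± 1.496 and 48.2 ± 3.54 CPM per kb, on that scale. Fcgr2b and Fcgr3 are close paralogs: 10.2% of the 50-base windows of Fcgr3 coding transcripts also occur in Fcgr2b, and 4.48% of those of Fcgr2b occur in Fcgr3. Of 75-base windows, 5.78% of those of Fcgr3 are shared, and no 50-base window of Fcgr1 or Fcgr4 is shared with another of the 4 genes. Counts of Fcgr2b and Fcgr3 are uncertain to that extent, since the treatment of reads that map to both is not given in the sources used here. Genes overlapping members held few counts: at most 4 for Gm38204 on the other strand of Fcgr2b, and 1 to 18 for Gm45669 on the other strand of Fcgrt, against 1197 to 1954 counts of Fcgrt.

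The inhibitory receptor Fcgr2b had the widest range of the 6 genes, 3.09-fold from the lowest library to the highest. Its level in controls was 80.7, 79.9 and 71.8 CPM, and with PARPi alone 95.6, 94.8 and 86.3 CPM. ICB alone gave 105.3, 97.0 and 121.7 CPM. PARPi with ICB gave 128.4, 142.5 and 222.1 CPM, and PARPi with anti-VEGFA 103.1, 113.7, 141.7 and 155.7 CPM. The full combination gave 152.7, 141.2, 187.9 and 149.7 CPM. All treated libraries lay above all controls, and control, PARPi and ICB formed 3 steps that did not overlap, while the groups from ICB upward overlapped their neighbours. Against control, Fcgr2b rose 2.12-fold with PARPi and ICB (log2 change 1.08 ± 0.18 SE, edgeR Benjamini-Hochberg adjusted p = 0.000692) and 2.04-fold in the full combination (1.03 ± 0.17, adjusted p = 0.000418). With PARPi and anti-VEGFA it rose 1.66-fold (0.73 ± 0.17, edgeR adjusted p = 0.00618). For ICB alone the log2 difference was 0.48 ± 0.17 (95% interval 0.11 to 0.85, edgeR adjusted p = 0.157), and for PARPi alone 0.25 ± 0.17 (-0.12 to 0.62, adjusted p = 0.624). Replicate 3 of PARPi with ICB was the highest of the 20 libraries, and without it the change was 0.81 and still passed (edgeR adjusted p = 0.00514 at most over all single libraries left out).

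**Figure D1:**
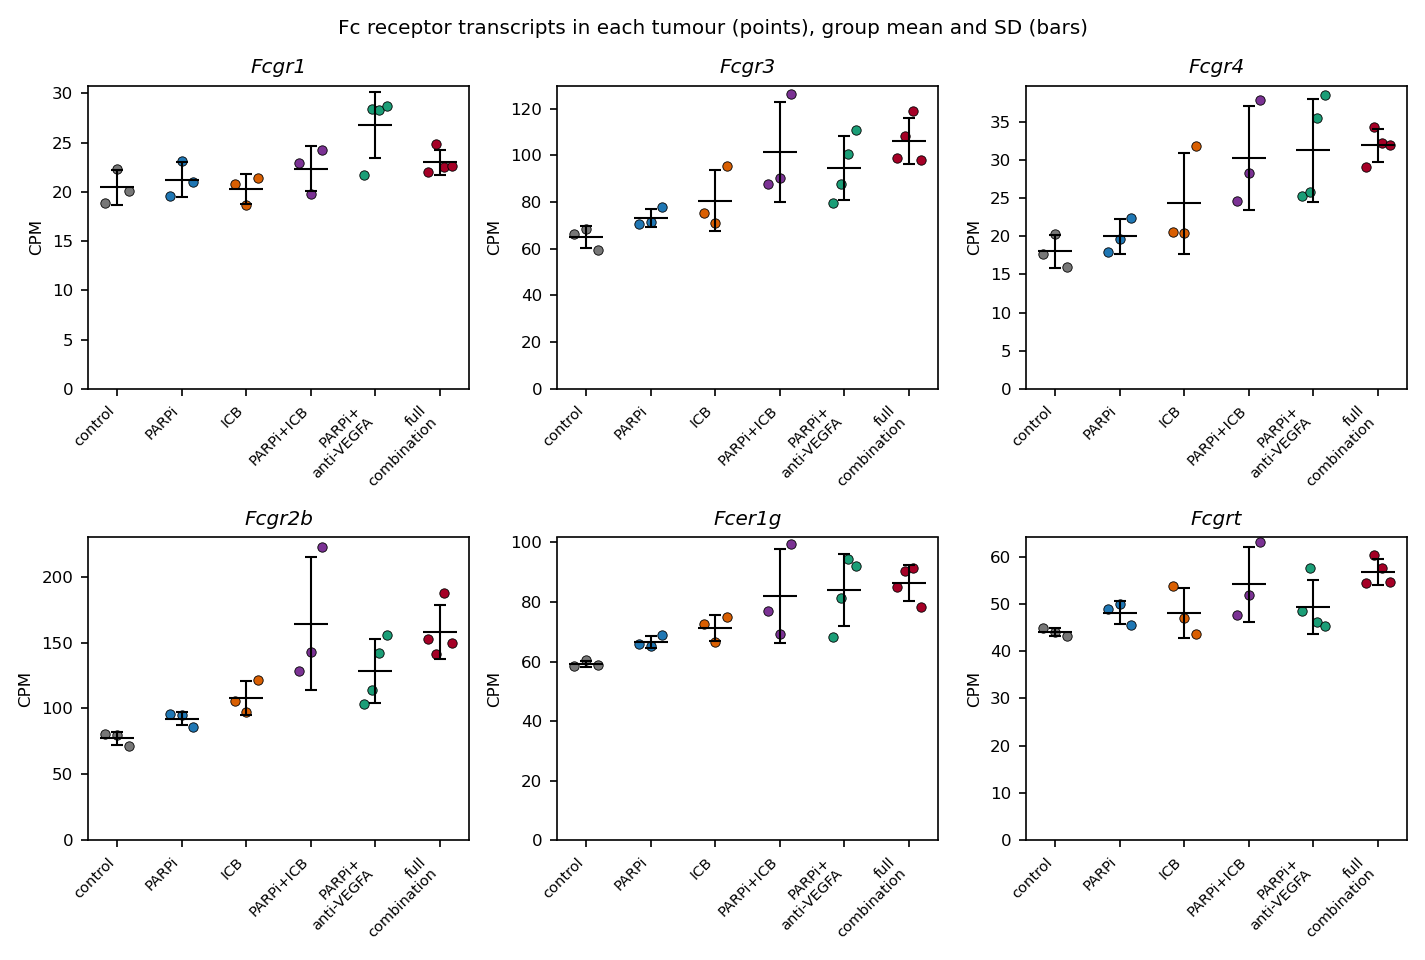
CPM (vertical axis, from 0) of each of the 6 genes in every tumour (points) by treatment group (horizontal axis), with the group mean and SD (bars). Fcgr2b runs from 71.8 CPM in a control to 222.1 CPM in a tumour given PARPi and ICB, while Fcgr1 stays between 18.6 and 28.7 CPM.

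Among the activating receptors, Fcgr3, the low-affinity receptor of macrophages, natural killer cells and neutrophils, rose in all 3 combinations. Controls held 66.5, 68.6 and 59.5 CPM, PARPi 70.4, 71.2 and 77.7 CPM, and ICB 75.1, 71.0 and 95.6 CPM. PARPi with ICB held 87.8, 90.2 and 126.3 CPM, PARPi with anti-VEGFA 79.6, 87.6, 100.5 and 110.6 CPM, and the full combination 98.7, 108.1, 119.1 and 98.1 CPM. Every treated library was above every control, and no tumour of the full combination fell below 98.1 CPM. The log2 change against control was 0.71 ± 0.13 in the full combination (edgeR adjusted p = 0.00132), 0.64 ± 0.14 with PARPi and ICB (adjusted p = 0.00514) and 0.54 ± 0.13 with PARPi and anti-VEGFA (adjusted p = 0.00995). The last of these was 0.49 and missed the threshold without control replicate 3 (edgeR adjusted p = 0.0517).

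Fcgr4, an activating receptor of monocytes, macrophages and neutrophils, rose in the same 3 combinations. Its levels were 17.7, 20.3 and 16.04 CPM in controls, 17.9, 19.6 and 22.4 with PARPi, and 20.6, 20.4 and 31.9 with ICB. They were 24.6, 28.3 and 37.9 CPM with PARPi and ICB, 25.3, 25.8, 35.5 and 38.6 with PARPi and anti-VEGFA, and 29.1, 34.4, 32.3 and 32.0 in the full combination. PARPi overlapped control, and the 3 combinations lay wholly above it. Against control Fcgr4 rose 1.77-fold in the full combination (log2 0.83 ± 0.18, edgeR adjusted p = 0.00381), 1.74-fold with PARPi and anti-VEGFA (0.80 ± 0.18, adjusted p = 0.00672) and 1.68-fold with PARPi and ICB (0.75 ± 0.19, adjusted p = 0.0134). The change with PARPi and ICB missed the threshold without control replicate 3 (log2 0.68, edgeR adjusted p = 0.0563) and without replicate 3 of that group (0.56, adjusted p = 0.0970). ICB replicate 3, which also held acinar RNA, stood at 31.9 CPM and the other 2 ICB libraries beside control replicate 2: without it the ICB difference was 0.18 on the log2 scale, against 0.43 ± 0.19 with it (edgeR adjusted p = 0.252).

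Fcgr1, the high-affinity receptor that binds single IgG molecules, passed the test in 1 comparison with control. Controls held 18.9, 22.4 and 20.1 CPM, PARPi 19.6, 23.2 and 20.98, and ICB 20.8, 18.6 and 21.5. PARPi with ICB held 22.9, 19.8 and 24.3 CPM, and the full combination 22.1, 24.9, 22.6 and 22.6. PARPi with anti-VEGFA held 21.8, 28.5, 28.3 and 28.7 CPM. In every other group the libraries overlapped those of control, and 3 of the 4 tumours given PARPi with anti-VEGFA were the highest of the 20, the fourth being among the control values. There Fcgr1 rose against control (log2 change 0.39 ± 0.10, edgeR adjusted p = 0.0146), and it did not when control replicate 1 was left out (0.34, adjusted p = 0.0638) or when the fit held those groups only (adjusted p = 0.0508). Other differences from control were 0.06 ± 0.11 for PARPi, -0.01 ± 0.11 for ICB, 0.13 ± 0.11 for PARPi with ICB and 0.17 ± 0.10 for the full combination, each with an edgeR adjusted p of at least 0.247. The upper 95% bounds of these 4 were 0.29, 0.22, 0.36 and 0.39. The full combination against PARPi with anti-VEGFA gave -0.22 ± 0.09 (edgeR adjusted p = 0.357) and did not pass, so a difference between those 2 groups was not shown.

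Fcer1g, the chain the 3 activating receptors share, rose in the same 3 combinations as Fcgr3 and Fcgr4. Controls held 58.6, 60.5 and 58.9 CPM, PARPi 65.8, 65.3 and 69.0, and ICB 72.5, 66.5 and 74.9. PARPi with ICB held 76.97, 69.4 and 99.6 CPM, PARPi with anti-VEGFA 68.1, 81.2, 94.6 and 92.2, and the full combination 84.9, 90.2, 91.5 and 78.2. All treated libraries were above all controls. The log2 change against control was 0.54 ± 0.11 in the full combination (edgeR adjusted p = 0.00232), 0.50 ± 0.11 with PARPi and anti-VEGFA (adjusted p = 0.00524) and 0.47 ± 0.12 with PARPi and ICB (adjusted p = 0.0117). Without replicate 3 of PARPi with ICB, the last was 0.31 and missed the threshold (edgeR adjusted p = 0.0919).

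Fcgrt, the FcRn heavy chain, had the narrowest range of the 6 genes, 1.46-fold from the lowest library to the highest. Controls held 44.9, 44.0 and 43.3 CPM, PARPi 48.9, 50.1 and 45.5, and ICB 53.9, 47.0 and 43.5. PARPi with ICB held 47.6, 51.9 and 63.0 CPM, PARPi with anti-VEGFA 48.5, 57.5, 46.2 and 45.2, and the full combination 54.5, 60.4, 57.6 and 54.5. Only ICB overlapped control, and no tumour of the full combination was below 54.5 CPM. There Fcgrt rose 1.29-fold (log2 0.37 ± 0.10, edgeR adjusted p = 0.0105). With PARPi and ICB the difference was 0.30 ± 0.10 (edgeR adjusted p = 0.0527), and with PARPi and anti-VEGFA 0.16 ± 0.10 (adjusted p = 0.246). Over all groups at once, Fcgrt was the 1 gene of the 6 that did not pass (edgeR adjusted p = 0.0675). B2m, the other FcRn subunit, stood at 2730 ± 238 CPM in controls and 3806 ± 495 CPM in the full combination, a log2 rise of 0.48 ± 0.12 (edgeR adjusted p = 0.00654). It also pairs with class I molecules, so its level is not that of FcRn.

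Counted together, 5 of the 6 genes differed between groups in the test over all groups, where 20.7% of the 18144 genes passed. In the full combination 5 of 6 were higher than in control, where 12.6% of all genes were called higher, and the median log2 change of the 6 was 0.62 against -0.02 over all genes. With PARPi and anti-VEGFA 5 of 6 were higher (9.99% of all genes), with a median of 0.52 against -0.02, and with PARPi and ICB 4 of 6 (9.58%), with a median of 0.56 against -0.02. None was lower in any of these. With ICB alone edgeR called 0 of 6 (2.2% of all genes), although 4 had an unadjusted p under 0.05. DESeq2 called 0 of 6 and 1031 of all genes, limma 0 of 6 and 285. PARPi alone gave 0 of 6 in edgeR (0.0661% of all genes), 0 at an unadjusted p under 0.05, and 0 in DESeq2 (345 of all genes) and limma (1). In ranks alone, 4 of 6 genes had every PARPi library above every control, against 11.2% of all genes, and 4 of 6 every ICB library, against 11.7%. For the 3 combinations this share of all genes is not reported here, so the separation of their libraries from control is a description of each gene only. These 5 comparisons share the 3 control tumours, so they are not independent of each other. Nor are the genes counted: Fcgr2b, Fcgr3, Fcgr4 and Fcer1g correlated with each other at 0.89 to 0.96 over the 20 libraries. The preparation-sensitive RNAs were also lower than in control: 3 of 3 passed with PARPi and ICB, 3 of 3 with PARPi and anti-VEGFA, 2 of 3 with ICB alone, where no member was called, 1 of 3 in the full combination and 0 of 3 with PARPi alone. With their mean level as a covariate, edgeR called 5 of 6 members in the full combination (2471 of the 18144 genes) and 1 of 6 with PARPi and ICB (630 genes). With PARPi and anti-VEGFA it called 0 of 6, and 0 of all genes. Fcgr2b differed there by 0.91 ± 0.31 (edgeR adjusted p = 0.211), against 0.73 ± 0.17 without the covariate. That group and control did not overlap in the covariate, so this fit cannot tell treatment from library preparation. The part of library preparation in the result was not tested further.

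**Figure D2:**
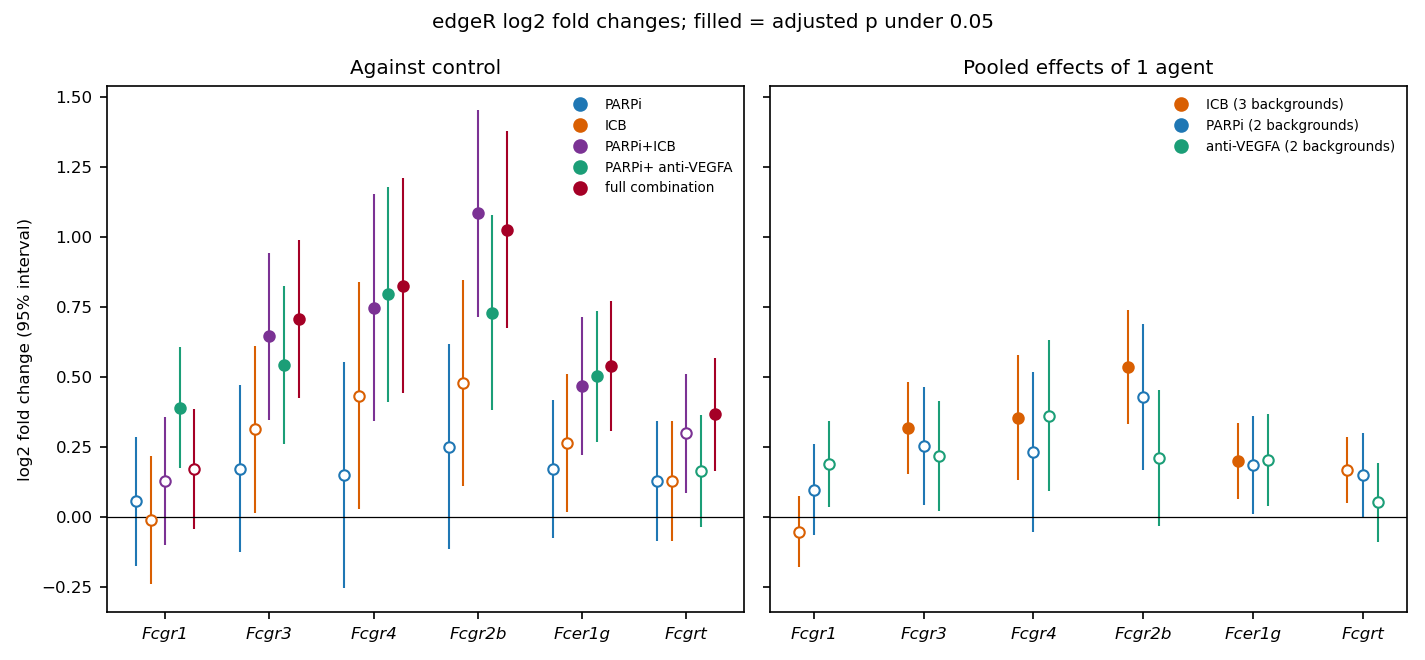
Log2 fold changes from edgeR (points, filled where the adjusted p is under 0.05) with 95% intervals (lines) for each gene, against control on the left and pooled over backgrounds for 1 agent on the right. The largest values belong to Fcgr2b, at 1.08 with PARPi and ICB and 1.03 in the full combination, and the Fcgr1 points lie near 0 except with PARPi and anti-VEGFA.

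The drugs were then separated by adding 1 agent to another treatment. Adding ICB to PARPi raised Fcgr2b 1.78-fold (log2 0.83 ± 0.18, edgeR adjusted p = 0.0270), the 1 member of 6 called there (1.26% of all genes). That call rested on single libraries: it was lost without replicate 1, 2 or 3 of PARPi (edgeR adjusted p = 0.0740, 0.0973 and 0.124) or without replicate 3 of PARPi with ICB (log2 0.55, adjusted p = 0.185). Pooled over the 3 backgrounds in which ICB was added (none, PARPi, and PARPi with anti-VEGFA), ICB raised 4 of 6, where 7.26% of all genes were called higher. Fcgr2b rose by 0.54 ± 0.10, Fcgr3 by 0.32 ± 0.08 and Fcgr4 by 0.35 ± 0.11 on the log2 scale (edgeR adjusted p = 0.00228, 0.0129 and 0.0337). Fcer1g rose by 0.20 ± 0.06 (edgeR adjusted p = 0.0474), Fcgrt differed by 0.17 ± 0.06 (adjusted p = 0.0562) and Fcgr1 by -0.05 ± 0.06 (adjusted p = 0.608). These are means over backgrounds, and they do not show a rise on each. Added to PARPi with anti-VEGFA, ICB gave 0.30 ± 0.15 for Fcgr2b and 0.16 ± 0.12 for Fcgr3. For Fcgr4 it gave 0.03 ± 0.17 there and for Fcer1g 0.04 ± 0.10. With the preparation-sensitive RNAs as a covariate edgeR called 2 of 6 for pooled ICB (1737 of all genes in place of 2567), and without the 4 libraries with acinar RNA 2 of 6 (1802). The calls of Fcgr4 and Fcer1g were close to the threshold, with an edgeR adjusted p of up to 0.0851 and 0.110 when replicate 3 of PARPi with ICB was left out. That of Fcgr4 was also lost without control 1 or 3, PARPi 1 or 2, ICB 3, or PARPi with anti-VEGFA 1 or 2. That of Fcer1g was lost in addition without any control or PARPi library, ICB 1 or 3, PARPi with anti-VEGFA 1 or 2, or full combination 1, 2 or 3.

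Adding anti-VEGFA gave no call. Against PARPi alone, Fcgr4 differed by 0.65 ± 0.18 and Fcgr1 by 0.33 ± 0.10 on the log2 scale (edgeR adjusted p = 0.106 and 0.133). There edgeR called 0 of 6 (0.573% of all genes), although 5 were under 0.05 before adjustment. DESeq2 called 2 of 6 and 649 of all genes, limma 0 of 6 and 54. Added to PARPi with ICB, anti-VEGFA moved the 6 genes by -0.06 to 0.08, with 95% intervals inside -0.40 to 0.46. In that comparison edgeR called 0 of the 18144 genes (0%, with 745 under 0.05 before adjustment). DESeq2 called 12 of them and limma 0, none of them a member. Pooled over both backgrounds, anti-VEGFA gave 0 of 6 (0.0331% of all genes), with 4 at an unadjusted p under 0.05 and 0 in DESeq2 (315 of all genes) and limma (8). ICB added to PARPi with anti-VEGFA gave 0 of 6 as well (0.0882%), with Fcgr2b at 0.30 ± 0.15 (edgeR adjusted p = 0.435), 2 members at an unadjusted p under 0.05 and 0 in DESeq2 (251 of all genes) and limma (13).

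PARPi added to ICB gave 0 of 6 in edgeR (0.871% of all genes), with 2 under 0.05 before adjustment. DESeq2 called 1 of 6 and 824 of all genes, limma 0 of 6 and 68. The Fcgr2b difference there was 0.61 ± 0.17 (edgeR adjusted p = 0.0943), and its libraries did not overlap. Pooled over both backgrounds PARPi gave 0 of 6 (5.1%), with 3 at an unadjusted p under 0.05, 1 in DESeq2 (1747 of all genes) and 0 in limma (541), and Fcgr2b at 0.43 ± 0.12 (edgeR adjusted p = 0.0513) stood at the threshold. Tests of whether 1 drug changed the effect of another gave no call among all genes in edgeR (0%). For ICB and anti-VEGFA on PARPi the interaction was -0.54 ± 0.23 for Fcgr2b and -0.57 ± 0.25 for Fcgr4 (edgeR adjusted p = 0.725 and 0.734). Before adjustment, these 2 members and 1188 of all genes were under 0.05. DESeq2 called 17 genes and limma 0, with no member among them. For PARPi and ICB the interaction of Fcgr2b was 0.35 ± 0.25 (edgeR adjusted p = 0.975), and before adjustment 0 members and 946 of all genes were under 0.05. DESeq2 called 8 genes and limma 0, with no member among them.

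Within the 4 Fc gamma receptors, the inhibitory one took a larger share where ICB was combined with PARPi. Of the counts of Fcgr1, Fcgr2b, Fcgr3 and Fcgr4 together, Fcgr2b held 42.9% ± 1.06 in controls (41.8 to 43.9%), 44.7% ± 2.75 with PARPi and 46.4% ± 1.31 with ICB (44.96 to 47.5%). It held 51.2% ± 2.72 with PARPi and ICB (48.7 to 54.1%), 45.6% ± 1.06 with PARPi and anti-VEGFA (44.5 to 46.7%) and 49.4% ± 2.63 in the full combination (45.8 to 51.9%). Every library that received ICB was above every control, and so was every library of PARPi with anti-VEGFA, which held no ICB. PARPi with ICB lay wholly above PARPi and above PARPi with anti-VEGFA. The full combination overlapped both of these, since PARPi reached 46.97%. The share of Fcgr1 was 11.3% ± 0.94 in controls, 8.77% ± 0.76 with ICB, 7.22% ± 1.39 with PARPi and ICB and 7.26% ± 0.76 in the full combination. Fcgr3 held 35.9% ± 0.33 in controls and 32.0% ± 1.26 with PARPi and ICB, while Fcgr4 stayed between 9.54% and 11.1% on average in every group. Shares of counts depend on gene length and on how reads common to Fcgr2b and Fcgr3 were counted, so they are compared between groups only, as a description without a test.

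**Figure D3:**
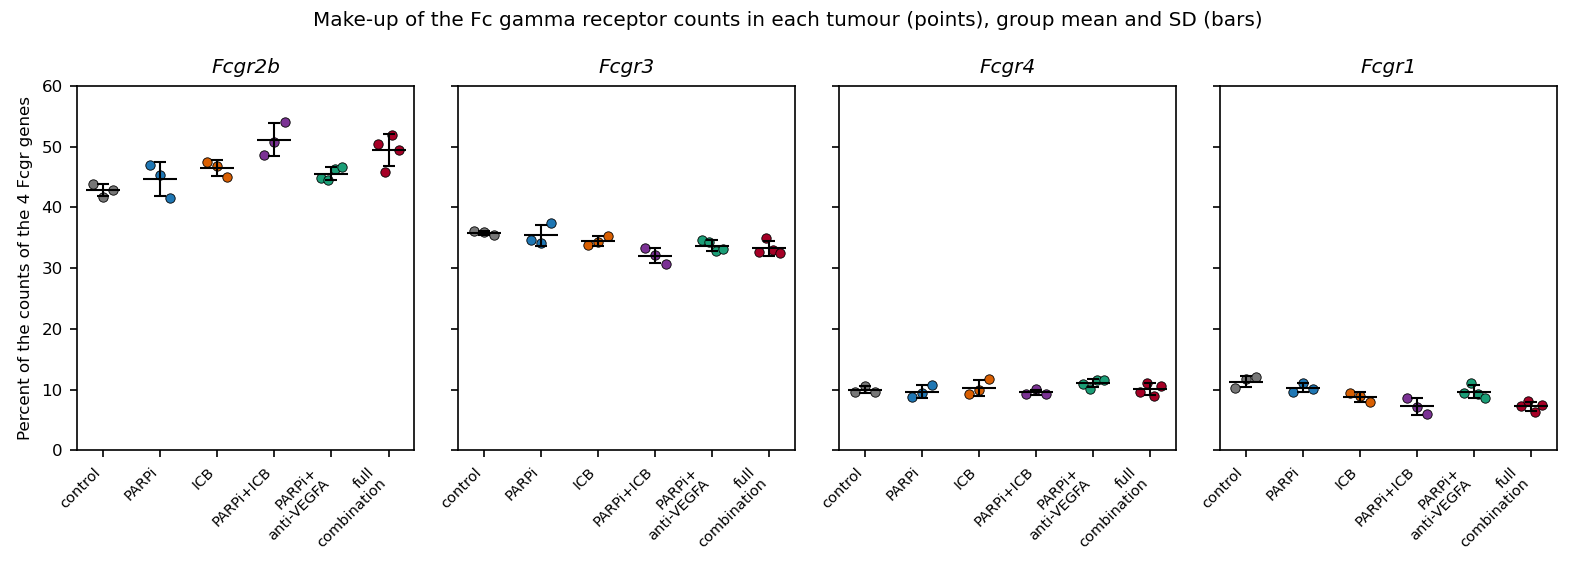
Percent of the counts of the 4 Fcgr genes (vertical axis, from 0) held by each gene, in every tumour (points) by group, with the mean and SD (bars). The Fcgr2b share is 42.9% in controls and 51.2% with PARPi and ICB, the Fcgr1 share 11.3% and 7.22%.

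Markers of macrophages moved with most of these genes. The mean log2 CPM of the 11 markers was 5.03 ± 0.10 in controls, 5.28 ± 0.21 with PARPi and 4.88 ± 0.50 with ICB, then 5.66 ± 0.36 with PARPi and ICB, 5.82 ± 0.09 with PARPi and anti-VEGFA and 5.83 ± 0.18 in the full combination. Of the 11 markers 8 rose in each of the 3 combinations against control, while 0 passed with ICB alone. Mrc1, the mannose receptor, rose by 1.13 ± 0.19 on the log2 scale in the full combination (edgeR adjusted p = 0.00054), Cd163 by 2.65 ± 0.50 (adjusted p = 0.00128) and Msr1 by 0.72 ± 0.17 (adjusted p = 0.00597). With this marker level as a covariate, the calls against control fell to 1 of 6 with PARPi and ICB and to 0 of 6 in the other 2 combinations. The loss was not one of these genes alone: over all genes, calls fell from 2922 to 680 with PARPi and ICB, from 3228 to 0 with PARPi and anti-VEGFA and from 4384 to 434 in the full combination. The remaining call was Fcgr2b with PARPi and ICB, at 0.69 ± 0.18 (edgeR adjusted p = 0.0420). Fcgr3 then differed by 0.24 ± 0.10 there (edgeR adjusted p = 0.217) and Fcgr4 by 0.20 ± 0.14 (adjusted p = 0.464).

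For ICB alone the macrophage markers gave no single direction. Their mean log2 level was lower than in controls, but 9 of the 11 had a positive difference with a median of 0.09, and their summed level was 1087 to 1288 CPM against 977 to 1255 CPM. With the mean log2 level as the covariate edgeR called 3 of 6 members for ICB, and 557 of all genes in place of 400. In that fit ICB differed from control by 0.56 ± 0.14 for Fcgr2b, 0.39 ± 0.08 for Fcgr3 and 0.52 ± 0.11 for Fcgr4 on the log2 scale (edgeR adjusted p = 0.0394, 0.0203 and 0.0204). ICB pooled over backgrounds gave 0.48 ± 0.08, 0.26 ± 0.05 and 0.27 ± 0.06 for the same genes in that fit (edgeR adjusted p = 0.00137, 0.00250 and 0.00904), near the values without the covariate. Relative to the marker mean, Fcgr2b stood 1.25 ± 0.05 log2 units above it in controls, 1.86 ± 0.34 with ICB, 1.66 ± 0.07 with PARPi and ICB and 1.46 ± 0.18 in the full combination, but 1.16 ± 0.20 with PARPi and anti-VEGFA. The covariate is itself an outcome of treatment, and how far cell numbers account for these values was not tested. Markers of other cells that carry these receptors moved too. Of 6 monocyte markers 5 were higher than in control in each of the 3 combinations and 2 with ICB alone, and their mean log2 CPM was 2.58 ± 0.19 in controls, 3.78 ± 0.86 with ICB, 5.22 ± 0.54 with PARPi and ICB, 4.12 ± 0.38 with PARPi and anti-VEGFA and 5.20 ± 0.23 in the full combination. Their summed level was 78.6 to 100.9 CPM in controls and 267.7 to 435 CPM in the full combination. Across the 20 libraries the mean of the monocyte markers gave a correlation of 0.95 with Fcgr2b, against 0.75 for the macrophage markers, as a description. After subtraction of each group's mean these were 0.75 and 0.64. Other lists were also high: T cell markers gave 0.91 (0.65 within groups), inhibitory phosphatases 0.93 (0.77) and phagocyte oxidase genes 0.91 (0.86). Of 7 natural killer markers 7 were higher in the full combination (median log2 change 1.97), 7 with PARPi and anti-VEGFA (1.40) and 3 with PARPi and ICB (1.23), at summed levels of 4.17 to 7.36 CPM in controls and 12.2 to 18.1 CPM in the full combination. Of 8 dendritic cell markers 6 were higher in the full combination, 5 with PARPi and anti-VEGFA and 2 with PARPi and ICB. Of 7 neutrophil markers tested, 2 were higher in each combination and 1 with ICB alone. The neutrophil marker Ly6g reached at most 0.37 CPM, and the natural killer marker Klrb1c at most 0.97 CPM in any library, and the summed level of 8 neutrophil markers was 13.1 to 79.1 CPM. Of 8 B cell markers, cells in which Fcgr2b is the main Fc receptor, 6 rose in the full combination and 5 with PARPi and ICB. The part of monocytes, natural killer cells, dendritic cells, neutrophils and B cells in the result was not tested.

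**Figure D4:**
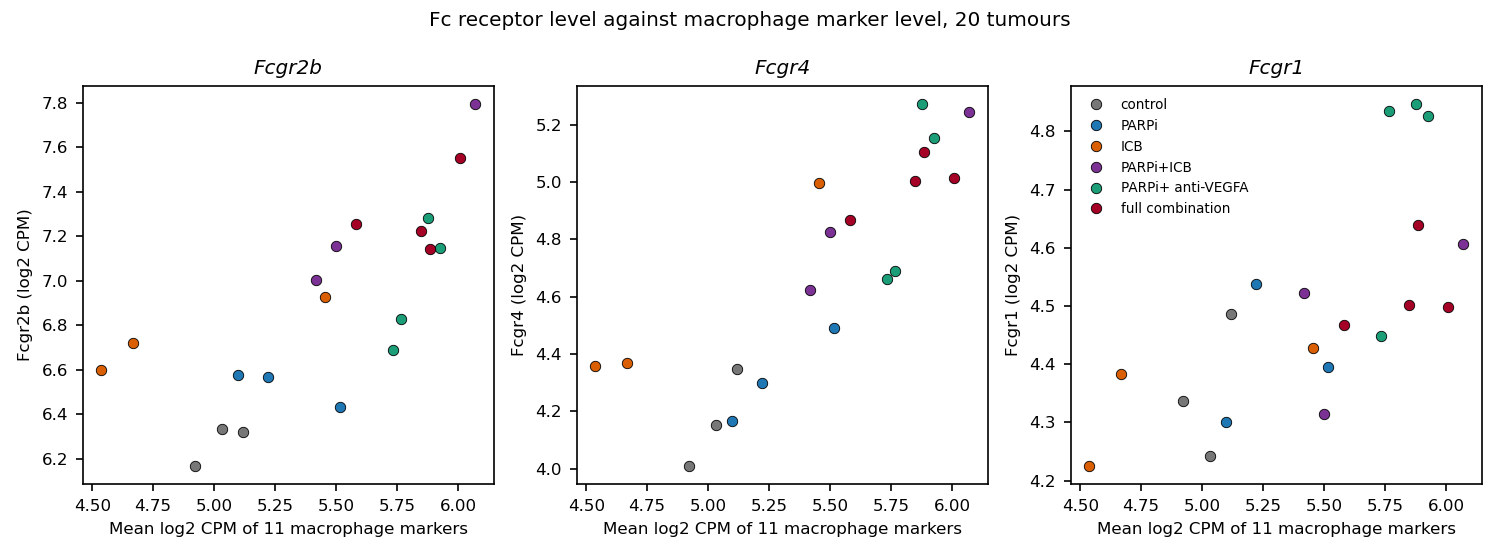
Log2 CPM of Fcgr2b, Fcgr4 and Fcgr1 (vertical axes) against the mean log2 CPM of 11 macrophage markers (horizontal axis) in the 20 tumours, coloured by group. The ICB tumours lie at or left of the controls in marker level except replicate 3, with Fcgr2b above them, and 3 of the tumours given PARPi and anti-VEGFA stand alone at the top for Fcgr1.

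Genes that act downstream of the receptors rose in the same combinations. Of 17 kinases and adaptors that carry the activating signal, 14 were higher than in control in the full combination, 14 with PARPi and anti-VEGFA and 13 with PARPi and ICB, while 0 passed with PARPi or ICB alone. With the preparation-sensitive RNAs as a covariate edgeR called 0 of all genes with PARPi and anti-VEGFA, and also 0 with the macrophage markers. So no list gene called in that group kept its call under either covariate. Its libraries did not overlap control in the RNA set (2.721 to 2.814 against 4.469 to 4.821 mean log2 CPM). Nor did they in the macrophage markers (5.732 to 5.925 against 4.921 to 5.12). These fits therefore cannot tell treatment from covariate there, and the lost calls say nothing particular to a list. In the full combination 2471 and 434 of all genes were called under these covariates, against 4384 without. Syk, the kinase recruited to Fcer1g, went from 30.6 ± 1.18 CPM in controls to 74.1 ± 17.6 CPM in the full combination (log2 1.28 ± 0.16, edgeR adjusted p = 7.51e-05), a larger log2 change than that of any of the 6 receptor genes there. Fgr, an Src-family kinase, rose by 1.12 ± 0.20, the adaptor Lcp2 by 0.79 ± 0.13 and the actin regulator Was by 1.04 ± 0.15. Lymphocyte markers were higher there too. The mean log2 CPM of T cell markers was 2.25 ± 0.25 in controls and 3.87 ± 0.25 in the full combination. For B cell markers it was 2.05 ± 0.06 and 3.11 ± 0.54. The part of these cells in the values of the signalling genes was not tested. On the inhibitory side, a list of 7 phosphatases and adaptors had 6 members higher and 1 lower. Inpp5d, the SHIP phosphatase recruited by Fcgr2b, rose by 0.67 ± 0.12 (edgeR adjusted p = 0.000639), Ptpn6 by 0.44 ± 0.09 (adjusted p = 0.00152) and Dok3 by 1.09 ± 0.16 (adjusted p = 0.000184). Ptpn11, named after its values were seen, fell by 0.22 ± 0.06 (edgeR adjusted p = 0.0117). Dok3 was the 1 of the 7 that also passed with ICB alone (0.83 ± 0.17, edgeR adjusted p = 0.0173).

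Genes of the effector step rose as well. Of 5 phagocyte oxidase genes 4 were higher in each of the 3 combinations: in the full combination Cyba rose by 1.03 ± 0.16, Ncf1 by 0.79 ± 0.14, Ncf4 by 0.75 ± 0.15 and Cybb by 0.62 ± 0.16. All 9 genes of C1q, properdin and complement receptors were higher in the full combination and with PARPi and ICB, and 8 of 9 with PARPi and anti-VEGFA. C1qa, a chain of the complement protein that also binds IgG complexes, went from 398 ± 15.6 to 669 ± 52.5 CPM in the full combination. C1qc was the 1 of these that passed with ICB alone (0.47 ± 0.12, edgeR adjusted p = 0.0452). Of 7 transcription factors known for Fc receptor genes, 5 were higher in the full combination: Spi1, which encodes PU.1, rose by 0.79 ± 0.16 and Irf8 by 0.64 ± 0.12, Cebpb by 0.96 ± 0.18 and Cebpa by 0.45 ± 0.12. Among 14 interferon-gamma-inducible genes, 7 were higher there, 9 with PARPi and anti-VEGFA, 2 with PARPi and ICB and 0 with ICB alone. No call of these lists with PARPi and anti-VEGFA was kept with the preparation-sensitive RNAs or the macrophage markers as a covariate, as for all genes. Cxcl9 rose by 0.88 ± 0.22 and Gbp5 by 0.94 ± 0.20 with PARPi and anti-VEGFA (edgeR adjusted p = 0.0120 and 0.0043), the group in which Fcgr1, itself inducible by interferon gamma, was highest. With ICB alone Cxcl9 differed by 0.81 ± 0.24 and Gbp5 by 0.73 ± 0.21 (edgeR adjusted p = 0.0793 and 0.0784), and Fcgr1 by -0.01 ± 0.11. The mean log2 CPM of the 14 genes was 6.06 ± 0.16 in controls, 6.70 ± 0.23 with ICB and 6.72 ± 0.30 with PARPi and anti-VEGFA. Across the 20 libraries that mean gave a correlation of 0.42 with Fcgr1 (0.27 within groups). It gave 0.58 with Fcgr2b, 0.57 with Fcgr3, 0.60 with Fcgr4, 0.63 with Fcer1g and 0.06 with Fcgrt. Within groups these were 0.51, 0.42, 0.40, 0.44 and -0.46. The part of interferon gamma in the Fcgr1 values was not tested.

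A further list held 12 genes of receptors that use Fcer1g or of its relative Tyrobp and the receptors of that adaptor. Of these 10 were tested, and 8 were higher with PARPi and anti-VEGFA, 4 in the full combination, 1 with PARPi and ICB and 0 with ICB alone. The calls with PARPi and anti-VEGFA were all lost with the preparation-sensitive RNAs or the macrophage markers as a covariate, as were those of all genes. Clec4n, a fungal pattern receptor, rose by 0.62 ± 0.14 with PARPi and anti-VEGFA (edgeR adjusted p = 0.00578) and gave 0.11 ± 0.14 in the full combination (adjusted p = 0.601). Clec4e rose by 2.26 ± 0.58 with PARPi and anti-VEGFA from 0.94 ± 0.19 CPM in controls (edgeR adjusted p = 0.0126). Of 13 further Fc receptor genes, 10 were tested and 4 were higher in the full combination. Fcrla, an intracellular IgG-binding protein of B cells, went from 3.32 ± 0.81 to 13.7 ± 5.10 CPM (log2 2.04 ± 0.29, edgeR adjusted p = 0.000148). Ms4a2, a chain of the mast cell IgE receptor that also uses Fcer1g, went from 0.51 ± 0.16 to 1.52 ± 0.42 CPM. Transcripts of the IgG heavy chains varied widely between mice. Ighg2c ranged from 540 to 7226 CPM over the 20 libraries and was higher with PARPi and anti-VEGFA (1.97 ± 0.58, edgeR adjusted p = 0.0256), while in the full combination its difference was 1.57 ± 0.57 (adjusted p = 0.0523). Ighg3 was higher in the full combination (2.87 ± 0.93, edgeR adjusted p = 0.0329), and Ighg1 and Ighg2b passed in neither. The injected antibodies are proteins and are not in these counts.

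Across the 20 libraries, the genes most like each member are given as Pearson correlations of log2 CPM, with the value after subtraction of each group's mean in brackets, as a description. The libraries share groups and cell mixture. The closest to Fcgr2b was Fcgr3, at 0.96 (0.89), followed by Dse, Srgn, Abcd2 and Pdcd1lg2, a ligand of PD-1, each at 0.96. The closest to Fcgr3 were Pla2g7, Srgn, Fcgr2b, Fcgr4 and Cd300ld (0.96 each), and to Fcgr4 they were Fcgr3 at 0.96 (0.91), Olr1, Cd300ld, Chl1 and Lilr4b. Fcer1g was most like Ly86 at 0.95 (0.89), then C1qb, Ctsc, Fcgr3 and Pla2g7. Reads common to Fcgr2b and Fcgr3 could enter their own correlation. Fcgr3 and Fcgr4, which share no 50-base window, gave 0.96 as well. Fcgr1 stood apart, at 0.49 with Fcgr2b, 0.60 with Fcgr3, 0.66 with Fcgr4 and 0.73 with Fcer1g. Its nearest genes were Pilrb1 at 0.86 (0.65), an activating myeloid receptor, Cd36 at 0.86 (0.75), Cxcl14 at 0.83 (0.82), Srgap3 and Csgalnact1.

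Fcgrt followed none of the other 5 within groups, with values from -0.14 with Fcgr4 to 0.23 with Fcer1g. Without subtraction of the group means it gave 0.28 with Fcgr1 to 0.67 with Fcgr2b. Its nearest genes were Usf2 at 0.86 (0.72), Arhgef1, Rgl2, Abcd4 and Ccdc9, none of which was nearest to another member. Within groups Fcgrt gave 0.59 with the mean of 8 endothelial markers and 0.02 with that of the macrophage markers, while Fcgr3 gave 0.01 and 0.85. Without subtraction of the group means the order for Fcgrt was the other way, at 0.37 and 0.48. The list of inhibitory phosphatases and adaptors gave 0.56 with Fcgrt within groups, so the endothelial value did not stand alone. Of the 8 endothelial markers 0 passed in any group against control: their mean log2 CPM was 3.82 ± 0.18 in controls, 3.71 ± 0.15 with PARPi and anti-VEGFA and 3.84 ± 0.15 in the full combination.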

How the data were processed

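RNA of 20 tumours in 6 groups was measured. STAR, HTSeq and the GRCm38 build are named in the submitters' processing notes, and the deposited table holds raw read counts per Ensembl gene. Versions, annotation release and strand setting are not given in the sources used here. A second deposited table holds log2(RPKM + 1), which its name places on coding sequence. Checked on the files, it divides by the gene's span with introns, so levels between genes were computed here from counts per kb of exon.

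Counts were fitted in R 4.3.3 with edgeR 4.0.16 (TMM scaling, filterByExpr at 10 counts per library and 15 in all, 1 coefficient per group over all 20 libraries, quasi-likelihood test). Of 55406 genes, 55227 matched GENCODE M21 and 18144 were tested. Calls are at a Benjamini-Hochberg adjusted p under 0.05 over all tested genes. Intervals are 95%. CPM used effective library sizes, and log2 CPM a prior count of 2. DESeq2 1.42.0 on the counts and limma 3.58.1 on the deposited log2 values were alternatives. On simulated data of 18144 genes with 200 changed, the edgeR fit found, for PARPi with ICB against control, 92% of the changes of 2-fold and 98% of those of 4-fold, with 5.94% of calls false. For the full combination these were 96%, 99% and 2.99%. Changes under 2-fold were not simulated, so these rates do not apply to the smaller changes of most members.

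The 6 genes and 25 gene lists were chosen with earlier results of these data known. Named with values were the 6 genes, from each list at most 4 genes with the smallest p over all groups (all of lists of up to 5 genes), the 5 genes most correlated with each member among those with a mean of at least 1 CPM, and the preparation-sensitive RNAs. Total counts of 26.86 to 34.66 M give each member 485 to 6714 counts per library. Counting error is small beside the fitted spread between mice, a coefficient of variation of 0.107 to 0.179 for the members. Within controls alone Fcer1g (59.3 ± 1.02 CPM) and Fcgrt (44.0 ± 0.80 CPM, SD) varied less, and counting error is not small beside that. Same-numbered libraries did not deviate together, so no block was used in the fit. Values of some list genes are not reported here.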

Additional observations from a re-analysis of the deposited data

Results flagged for a closer look

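One library stood apart within its group. For Fcgr1, PARPi with anti-VEGFA replicate 1 held 21.8 CPM (21.77) and the other 3 of that group 28.3 to 28.7 CPM, a gap of 0.939 of the group's range. It was 1 of 12 sets of 4 values checked, and chance flags about 1 in 20. This library also held acinar RNA, as did replicate 4 of the same group, with 28.7 CPM. The part of acinar tissue in the low value was not tested.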

How the results depend on the processing

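No direction among the called values reversed under any alternative run. Of 385 alternative values of called members, 321 kept their side of the threshold and 64 lost it. The counts of members called that changed by over 1.5 times were these. With the macrophage marker level as a covariate, the count over all groups went from 5 to 3, ICB against control from 0 to 3, PARPi with ICB from 4 to 1, PARPi with anti-VEGFA and the full combination from 5 to 0, and ICB added to PARPi from 1 to 0. With the preparation-sensitive RNAs as a covariate, PARPi with ICB gave 1, PARPi with anti-VEGFA 0 and pooled ICB 2 in place of 4. DESeq2 gave 3 for ICB added to PARPi, 2 for anti-VEGFA added to PARPi, 1 for PARPi added to ICB and 1 for pooled PARPi, and it called more of all genes there too: 782, 649, 824 and 1747 against 229, 104, 158 and 925 in edgeR. The unfiltered limma fit gave 0 for ICB added to PARPi and 2 for pooled ICB. A fit of the compared groups alone gave 1 for ICB against control, 0 for ICB added to PARPi and 1 for pooled PARPi, which also gave 1 with DESeq2 size factors and 1 with no filter. Without the libraries with acinar RNA, an alternative chosen after seeing the data, pooled ICB gave 2 and pooled PARPi 2.

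Leaving out 1 library at a time gave 2 to 5 calls for PARPi with ICB against control, 0 to 1 for ICB added to PARPi, 0 to 1 for anti-VEGFA added to PARPi, 2 to 5 for pooled ICB and 0 to 1 for pooled PARPi. The lowest count for PARPi with ICB came without its replicate 3.

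Replicate numbers recur in every group, and the labels do not say that they pair mice. The mean correlation of deviations was 0.00595 over 46 same-numbered pairs (-0.219 to 0.173) and -0.00213 over 120 others. A fit with the replicate block gave 1 call for pooled PARPi in place of 0 and moved no other count by over 1.5 times. With 485 or more counts of each member in every library, the number of mice limits the precision more than depth.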

Other observations

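The deposited RPKM values are lower for long genes than exon-based levels would be. For 10939 genes compared, the length implied by the table was 0.987 of the gene's whole span at the median, with 99.8% of genes within 10% of it. The same length was 16.6 times the coding length and 5.26 times the merged exon length at the median. For the Fc receptors this changes an order. The authors' log2(RPKM + 1) in controls averaged 1.52 for Fcgr1 and 1.42 for Fcgr4, while per kb of exon Fcgr4 (14.3 CPM) stood above Fcgr1 (7.90 CPM). Ratios of 1 gene between groups do not depend on the length. Differences in log2(RPKM + 1) do, since 1 is added after the division, and they are compressed where RPKM is low. On that scale Fcgr4 averaged 1.42 in controls and 1.925 with PARPi and ICB, where edgeR gave a log2 change of 0.75.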
